A study of Mus musculus with 6 samples.

Results

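The interferon response genes described here are a set of 39 mouse genes that interferons are known to induce or to act through. They were taken from the array by exact gene symbol, and 37 of the 39 had at least 1 probe set, 64 probe sets together, among the 45101 on the array and the 18193 genes named on it. Isg15 was read only by a probe set shared with another symbol, and Ifi44 had no probe set of its own name, so both are not analysed here. Where a gene had several probe sets, the one with the highest mean over the arrays stood for it. A filter on dim probe sets removed Ifit1, Oasl2 and Mx2, which left 34 genes for testing.

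The samples were 6 primary thymic lymphomas, each from its own mouse and each hybridised to 1 Affymetrix array. All 6 mice were homozygous for IkL, a hypomorphic allele of Ikzf1, which encodes the lymphoid transcription factor Ikaros, and all carried CD4-Cre, a transgene that expresses Cre recombinase in developing thymocytes. One group came from 3 mice with wild-type Notch1 (Notch1+/+), which were 18 to 20 weeks old. The other came from 3 mice homozygous for a floxed Notch1 (Notch1f/f), whose promoter and exon 1 Cre can remove, and which were 8 to 10 weeks old. Age went with genotype, so the effects of age and of Notch1 cannot be told apart. The tumour cells were freed from the tissue mechanically with no sorting step, so cells of the host could remain. The labels give no pairing, sex or batch, and p-values measure the spread between these tumours. Pearson's r between arrays ranged from 0.918 to 0.962. The brighter of the pair of Notch1 probe sets ranged from 2532 to 3637 across Notch1+/+ arrays and reached 3419 across Notch1f/f arrays. The other ranged from 567.9 to 1792.5 against 1346.2 to 2211.5, with a higher mean across Notch1f/f arrays and overlapping groups. Arrays of this type read the 3' part of transcripts, so these signals do not check the deletion. Defining T cell genes were bright in every tumour, in accord with the labelled cell type, with Cd3e at 1277 to 2853 and Thy1 at 3657 to 4962.

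Interferons are secreted proteins that warn cells of infection. Type I interferons bind the receptor pair Ifnar1 and Ifnar2, whose kinases Jak1 and Tyk2 activate Stat2, which joins Irf9 on interferon-stimulated response elements in the promoters of target genes. Interferon gamma uses another receptor and acts in part through Irf1. The induced proteins sense foreign nucleic acid, block viral replication, modify proteins with ubiquitin-like tags and damp the pathway, and thymic epithelial cells are known to make interferon without infection.

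Interferon response genes leaned towards higher intensities in the Notch1f/f tumours, led by Rtp4, Trim30a and Rsad2, and the lean was uneven across the set. Of 34 tested genes, 26 were on the higher side (log2 difference above 0) and 8 on the lower, and the median difference was 0.30. Over all 27022 tested probe sets, 45.0% were above 0 and the median was -0.04. These include several probe sets for some genes, and with 1 probe set per gene, for 12043 genes, the median was -0.015. In 12 of the 34, or 35.3%, all 3 Notch1f/f tumours lay above all 3 Notch1+/+ tumours, and in none did they all lie below. The background for these counts was 8.13% of all tested probe sets without overlap on the higher side and 10.4% on the lower side. Differences over 1 on the log2 scale were found for 3 genes on the higher side and for Usp18 alone below -1, where 1.87% and 1.74% of all probe sets lay beyond these bounds. No interferon gene passed an adjusted p of 0.05 in limma, which called 0.0185% of all probe sets, and the smallest adjusted p was 0.180, that of Rtp4. An unadjusted p under 0.05 was reached by 8 of the 34, all higher in the Notch1f/f tumours, against a background of 5.94% on the higher side and 7.6% on the lower. Mx1, counted both here and among the genes without overlap, passed the filter on dim probe sets only through its Notch1f/f values. The median of the set was 0.17 without Notch1+/+ tumour 3, 0.17 when each gene's probe sets were averaged, and 0.18 with a pseudocount of 64 in place of 16. Differences are between means of log2(intensity + 16), a scale on which a change in a dim gene looks smaller than it is, and the exact two-sided permutation test cannot go below 0.1 with 3 tumours against 3.

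**Figure D1:**
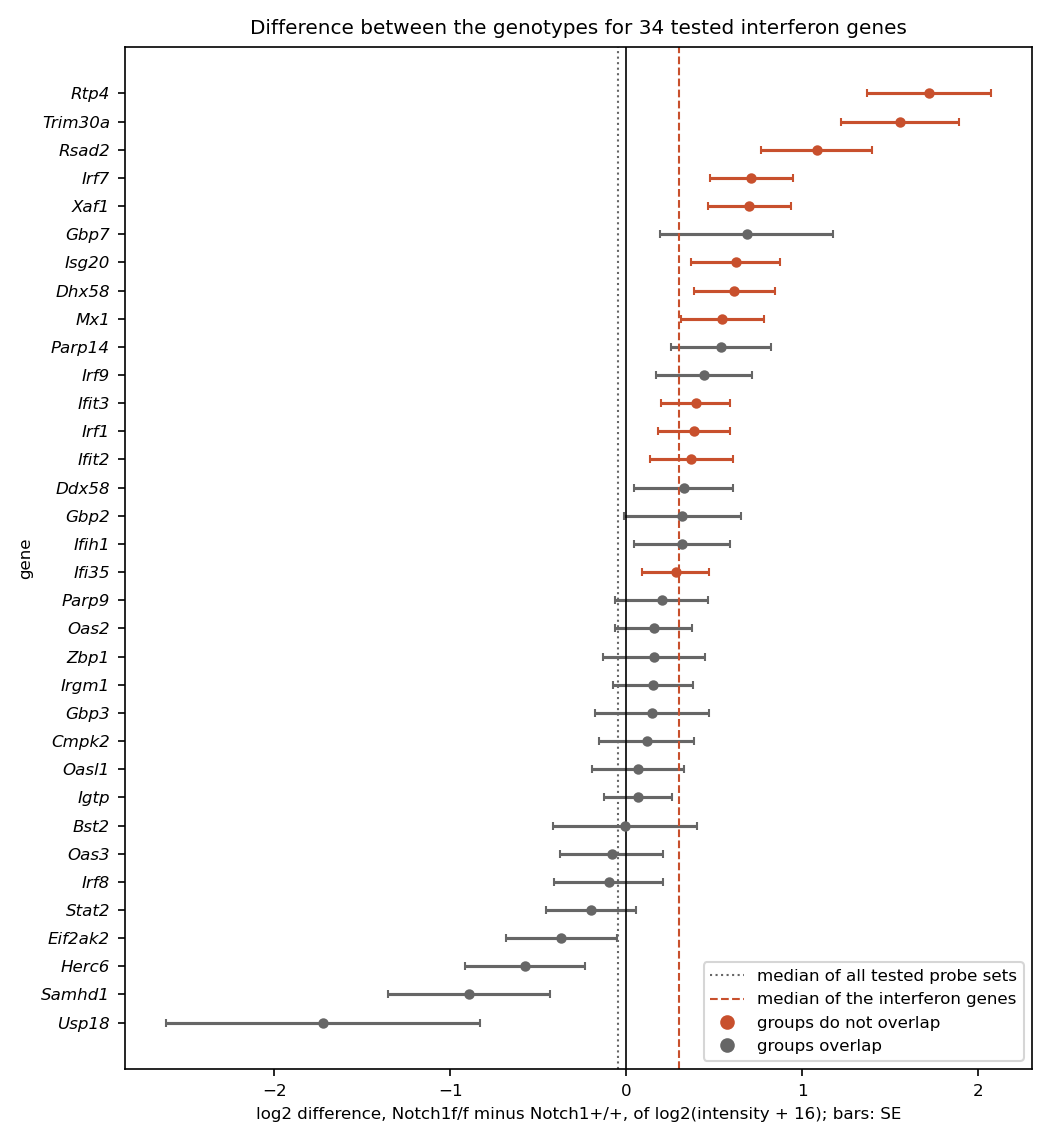
Log2 difference between the genotypes, Notch1f/f minus Notch1+/+, for the 34 tested interferon genes, sorted by size, with bars for the SE from limma (3 tumours per group). Filled orange points mark the 12 genes whose groups did not overlap, all right of 0, from Ifi35 at 0.28 to Rtp4 at 1.72, and Usp18 lies far to the left at -1.72 with the widest bar.

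Rtp4, a Golgi chaperone of membrane receptors that interferon induces in many cell types, showed the largest difference on the higher side. Its intensities were 48.0, 91.3 and 37.1 in Notch1+/+ tumours 1, 2 and 3, and 140.0, 272.5 and 274.6 in Notch1f/f tumours 1, 2 and 3. The groups did not overlap, and Notch1f/f tumour 1 lay nearest the Notch1+/+ range. The log2 difference was 1.72 ± 0.35 (SE), a 3.30-fold difference (limma adjusted p = 0.180, unadjusted p = 0.000802), and 1.01 with the mean of both Rtp4 probe sets. The second Rtp4 probe set was dim, at 3.4 to 5.8 against 7.4 to 10.5, and also without overlap.

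Trim30a, a RING-finger protein of the tripartite motif family, came next. It had 44.8, 114.6 and 73.8 in the Notch1+/+ tumours and 266.2, 319.9 and 175.1 in the Notch1f/f tumours. Notch1f/f tumour 2 was the highest, and the lowest Notch1f/f value still exceeded the highest Notch1+/+ value. The log2 difference was 1.56 ± 0.34 (limma adjusted p = 0.195). A second Trim30a probe set had a log2 difference of 0.62 ± 0.30, and there the groups overlapped, with Notch1+/+ tumour 2 at 133.0 and Notch1f/f tumour 3 at 115.8.

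Xaf1, a pro-apoptotic partner of the inhibitor XIAP, had 61.2, 86.5 and 90.0 in the Notch1+/+ tumours and 132.2, 141.3 and 138.6 in the Notch1f/f tumours. The Notch1f/f values lay close together, with an SD of 4.67 against 15.7 in the Notch1+/+ tumours. The log2 difference was 0.70 ± 0.24 (limma adjusted p = 0.295), or 0.46 with the mean of both Xaf1 probe sets. Ifi35, a leucine-zipper protein, had 302.8, 358.0 and 318.5 against 387.9, 426.6 and 384.9, with a difference of 0.28 ± 0.19 (limma adjusted p = 0.530). The brightest Ifi35 probe set is of a type that can detect more than 1 transcript, and the other Ifi35 probe sets had differences of 0.05 and -0.13 with overlapping groups.

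**Figure D2:**
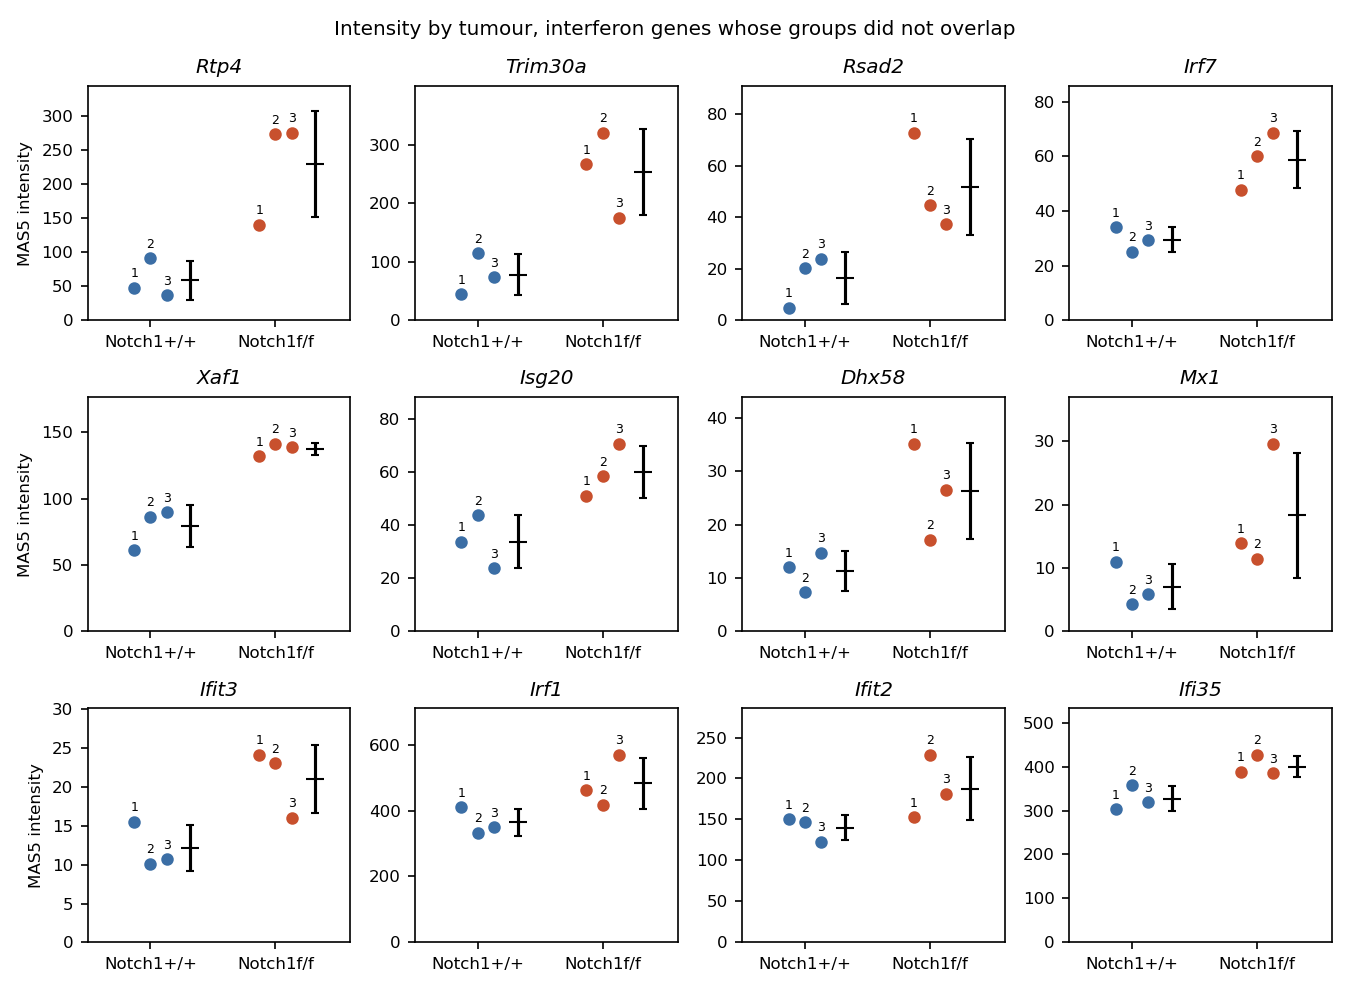
Intensity in each tumour (numbered points, linear axes from 0) for the 12 tested interferon genes whose groups did not overlap, with the mean and SD of each group (3 tumours) beside the points. Rtp4, Trim30a and Rsad2 are set far apart, while Ifit2 and Ifi35 are separated by narrow gaps, such as 150.5 against 152.5 for Ifit2.

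Among the transcription factors, Irf7 and Irf1 were higher in the Notch1f/f tumours without overlap, whereas Stat2 and Irf8 were not. Irf7, the factor that amplifies type I interferon production, had 34.2, 25.1 and 29.3 in the Notch1+/+ tumours and 47.8, 60 and 68.6 in the Notch1f/f tumours. Its log2 difference was 0.71 ± 0.24 (limma adjusted p = 0.295), or 0.97 and 0.39 with a pseudocount of 1 and 64. Irf1, a factor downstream of both interferon types, had 410.0, 332.3 and 349.5 against 461.2, 417.8 and 568.7. The gap between its groups was narrow, and the difference was 0.39 ± 0.21 (limma adjusted p = 0.429).

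The subunits of the factor that type I interferon activates differed in direction. Irf9, its DNA-binding subunit, had 61.9, 60 and 85.4 in the Notch1+/+ tumours and 112.3, 119.3 and 71.0 in the Notch1f/f tumours. Notch1f/f tumour 3 fell inside the Notch1+/+ range (difference 0.44 ± 0.27, limma adjusted p = 0.487). Stat2, its activating subunit, had 61.1, 48.2 and 64.3 against 63.6, 44.8 and 38.2 on its brighter probe set, a difference of -0.20 ± 0.25. On the dimmer Stat2 probe set the Notch1f/f tumours were higher without overlap, at 27.6 to 42.0 against 14.7 to 26.9 (0.43 ± 0.23, limma adjusted p = 0.443), so the probe sets differ in direction. Irf8, a factor of myeloid and B cells, had 39.3, 79.1 and 55.8 against 51.6, 34.5 and 74.2, with no separation and a difference of -0.10 ± 0.31 on the brighter probe set and 0.35 ± 0.27 on the other.

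The sensors of viral RNA all had differences above 0, but only Dhx58 had groups that did not overlap. Dhx58, the helicase LGP2, which modulates the other helicases, had 12.0, 7.3 and 14.7 in the Notch1+/+ tumours and 35.1, 17.2 and 26.5 in the Notch1f/f tumours (0.62 ± 0.23, limma adjusted p = 0.315). The difference was 1.14 and 0.26 with a pseudocount of 1 and 64, and 0.19 with the mean of the Dhx58 probe sets, where the groups overlapped. The other Dhx58 probe sets were too dim to be tested and showed no separation. Ddx58, the helicase RIG-I, had a difference of 0.33 ± 0.28 and Ifih1, the helicase MDA5, of 0.32 ± 0.27. Zbp1, a sensor of Z-form nucleic acid, had a difference of 0.16 ± 0.29 on the brighter probe set and of -0.49 ± 0.39 on the other.

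Usp18, which removes the Isg15 tag and blocks signalling at Ifnar2, had the largest difference on the lower side. Its intensities were 415.1 and 325.4 in Notch1+/+ tumours 1 and 2, but 14.2 in Notch1+/+ tumour 3. The Notch1f/f tumours had 13.7, 75.4 and 29.5. The groups overlapped because of Notch1+/+ tumour 3, and the difference was -1.72 ± 0.89 (limma adjusted p = 0.421). It was -2.95 without Notch1+/+ tumour 3 (limma adjusted p = 0.0782), -1.03 without Notch1+/+ tumour 1 and -1.20 without Notch1+/+ tumour 2. The high Usp18 of Notch1+/+ tumours 1 and 2 was not shared by Rtp4 or Rsad2, since Rtp4 was 48.0 and 91.3 there and Rsad2 4.9 and 20.2.

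Among the genes that restrict viruses, Rsad2, Isg20 and Mx1 were higher in the Notch1f/f tumours without overlap. Rsad2, or viperin, which makes a chain-terminating nucleotide, had 4.9, 20.2 and 24.0 in the Notch1+/+ tumours and 72.8, 44.8 and 37.4 in the Notch1f/f tumours. Notch1f/f tumour 1 was highest, unlike for Rtp4, where it was the lowest of its group. The difference was 1.08 ± 0.32 (limma adjusted p = 0.277), or 1.79 and 0.52 with a pseudocount of 1 and 64, and 0.63 with the mean of the 3 Rsad2 probe sets. Cmpk2, a nucleotide kinase that lies beside Rsad2 with no coding gene between them in RefSeq (GRCm38.p6), had 9.0 to 24.5 against 12.9 to 32 and a difference of 0.12 ± 0.27.

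Isg20, an exonuclease that degrades RNA, had 33.8, 43.8 and 23.8 in the Notch1+/+ tumours and 51.1, 58.4 and 70.6 in the Notch1f/f tumours (0.62 ± 0.25, limma adjusted p = 0.344). Mx1, a dynamin-like GTPase, was dim throughout, at 11.0, 4.3 and 5.9 against 13.9, 11.5 and 29.6 (0.55 ± 0.23, limma adjusted p = 0.355); the difference was 1.23 if 1 was added in place of 16, and 0.21 if 64 was added. The related Mx2 did not pass the filter, with 1.5 to 1.8 in the Notch1+/+ tumours and 10.6, 2.4 and 23.0 in the Notch1f/f tumours. Bst2, or tetherin, which holds budding virus at the cell surface, had 72.4, 221.8 and 70.8 against 79.1, 101.9 and 145.6. Its highest value was in Notch1+/+ tumour 2, and its difference was -0.0034 ± 0.41, which turned to 0.038 with quantile normalisation and 0.042 with median centring.

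Samhd1, an enzyme that depletes deoxynucleotides, gave no single answer over its 5 probe sets. The brightest one, of a type that can detect more than 1 transcript, had 78.6, 59.7 and 40.3 against 1.9, 42.6 and 44.0, so that Notch1f/f tumour 1 alone was low (-0.89 ± 0.46, limma adjusted p = 0.416). Another had 15.5 to 15.8 in the Notch1+/+ tumours and 24.5 to 28.3 in the Notch1f/f tumours, higher without overlap (0.41 ± 0.19, limma adjusted p = 0.378). The remaining probe sets had overlapping groups and differences of 0.76 ± 0.49, 0.017 ± 0.22 and, for one too dim to be tested, 0.25. Only the brightest lay below 0, and through it Samhd1 counts among the genes on the lower side. The mean over all Samhd1 probe sets differed by 0.11.

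The Ifit genes, whose products bind foreign RNA and restrain its translation, were separated by small margins where they were tested. Ifit2 had 150.5, 147.0 and 123.0 in the Notch1+/+ tumours and 152.5, 228.8 and 181.6 in the Notch1f/f tumours (0.37 ± 0.24, limma adjusted p = 0.502). Ifit3 was dim, at 15.5, 10.1 and 10.7 against 24.1, 23.0 and 16 (0.40 ± 0.20, limma adjusted p = 0.403). For both genes the lowest Notch1f/f value barely exceeded the highest Notch1+/+ value. Ifit1, a classical target, stayed between 4.9 and 9.1 in every tumour and did not pass the filter. Eif2ak2, the kinase PKR, which stops translation on double-stranded RNA, lay on the other side, at 72.4 to 93.7 against 86.4, 77.8 and 33.6 (-0.37 ± 0.32), with Notch1f/f tumour 3 low on all 3 of its probe sets. The other Eif2ak2 probe sets had differences of -0.69 ± 0.32 and -0.44 ± 0.26, with overlapping groups. On the former, Notch1f/f tumour 1, at 50.9, also lay below the Notch1+/+ range of 75.4 to 100.6.

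The oligoadenylate synthetases Oas2 and Oas3, which make the messenger that activates RNase L, and the related Oasl1 were dim and had differences smaller than their SE. They had intensities from 2.8 to 24.2 over all tumours and differences of 0.16 ± 0.22, -0.08 ± 0.29 and 0.07 ± 0.26. Oasl2 reached at most 10.6 in any tumour and was not tested. From the lists of other pathway genes, Oas1a, Oas1b and Oas1c also had overlapping groups, with differences of 0.49 ± 0.34, -0.13 ± 0.28 and 0.52 ± 0.26.

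Of the interferon-inducible GTPases, which attack the membranes around intracellular parasites, the 5 members of the set had differences above 0 and overlapping groups. In the lists of other pathway genes, Gbp6 and Irgm2 had -0.54 ± 0.38 and -0.34 ± 0.36, and Ifi47 and Iigp1 had 0.05 ± 0.25 and 0.01 ± 0.32. Igtp varied little, at 323.0, 399.3 and 336.5 against 388.2, 356.4 and 363.2 (0.07 ± 0.19). Irgm1 had 104.2 to 134.7 against 120.7 to 156.2 (0.15 ± 0.23). Gbp7 had 71.9, 223.4 and 33.0 against 132.3, 145.7 and 162.9, where the spread of the Notch1+/+ tumours covered the whole Notch1f/f range (0.69 ± 0.49, limma adjusted p = 0.555). The Gbp7 difference was 1.31 without Notch1+/+ tumour 2, 0.16 without Notch1+/+ tumour 3 and 0.33 with array weights. Gbp2 and Gbp3, encoded close to Gbp7, had differences of 0.32 ± 0.33 and 0.15 ± 0.32, which were -0.024 and -0.15 without Notch1+/+ tumour 3, and Gbp3 had -0.075 without Notch1f/f tumour 2. The guanylate-binding proteins are alike in sequence, and how far their probe sets detect each other was not tested.

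The ADP-ribosylating enzymes Parp14 and Parp9, which modify proteins in infected cells, had differences of 0.54 ± 0.28 and 0.20 ± 0.26. Parp14 had 66.1, 87.1 and 131.6 against 157.9, 156.4 and 112.0, and Notch1+/+ tumour 3 and Notch1f/f tumour 3 made the groups overlap. On a second, dimmer Parp14 probe set the Notch1f/f tumours were higher without overlap, at 19.9 to 33.8 against 7.0 to 17.3. Its difference was 0.60 ± 0.23 (limma adjusted p = 0.317). Herc6, the mouse ligase for the Isg15 tag, had 89.2, 79.9 and 81.3 in the Notch1+/+ tumours and 43.0, 96.3 and 28.8 in the Notch1f/f tumours (-0.58 ± 0.34, limma adjusted p = 0.475). Its Notch1f/f values were scattered on either side of the narrow Notch1+/+ range, and all 4 Herc6 probe sets had differences below 0, from -0.60 to -0.06.

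The tumours did not share a single order over the set. Notch1f/f tumours 2 and 3 were each the highest of the 6 for 10 of the 34 genes, Notch1f/f tumour 1 and Notch1+/+ tumour 2 for 5 each, and Notch1+/+ tumours 1 and 3 for 2 each. Over all tested probe sets, Notch1f/f tumours 2 and 3 were the highest in 9.71% and 18.8%. Against the mean of the Notch1+/+ tumours, the median gene was higher by 0.13, 0.32 and 0.32 on the log2 scale in Notch1f/f tumours 1, 2 and 3, and by 0.15 in Notch1+/+ tumour 2. The mean log2 level of the 34 genes was 6.42, 6.66 and 6.56 in the Notch1f/f tumours and 6.24, 6.50 and 6.13 in the Notch1+/+ tumours, so the groups overlapped on this summary through Notch1+/+ tumour 2. That tumour had the highest Gbp7, Bst2, Igtp, Irf8 and Oas3 of all 6.

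**Figure D3:**
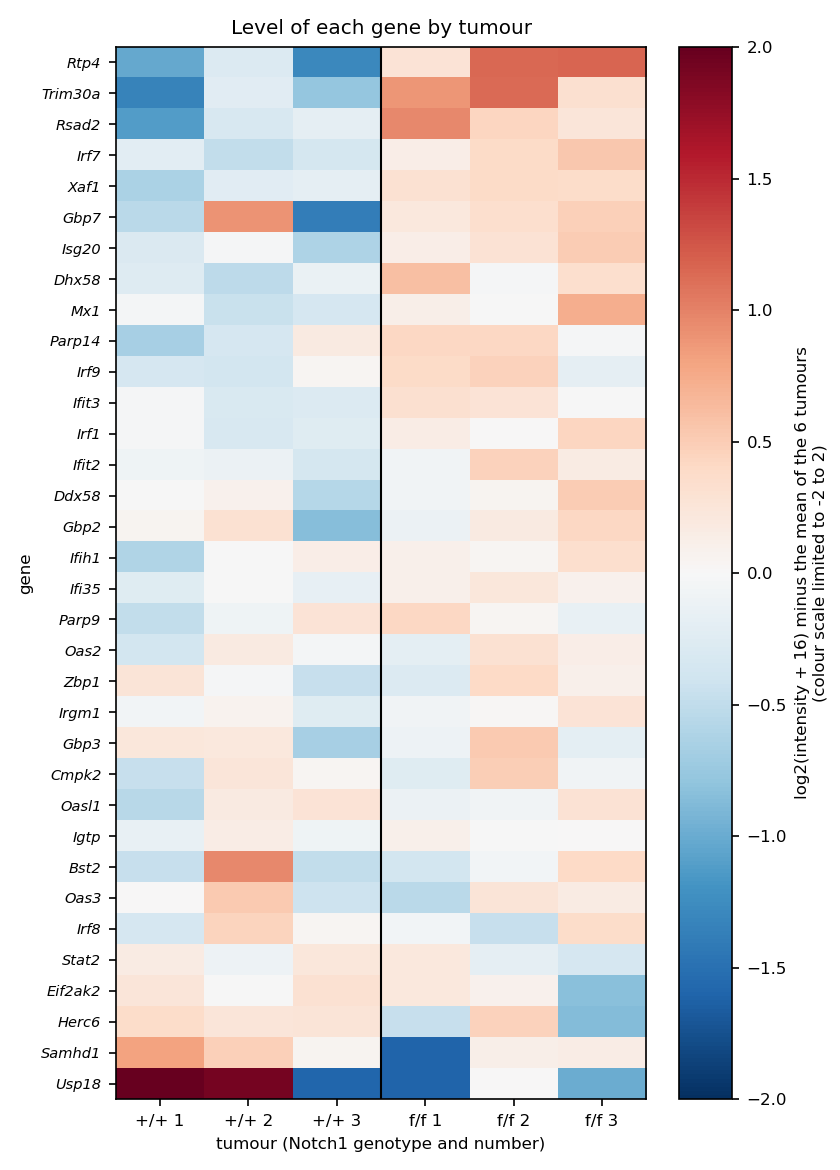
Heat map of the 34 tested interferon genes (rows, sorted by the difference between genotypes) in the 6 tumours (columns), coloured by log2(intensity + 16) minus the gene's mean over the tumours. The upper rows turn from blue to red between the genotypes, the middle rows vary tumour by tumour, with Notch1+/+ tumour 2 red for Gbp7 and Bst2, and Usp18 at the bottom is dark red in Notch1+/+ tumours 1 and 2 only.

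The promoters of the set were searched for the element through which type I interferon acts. RefSeq (GRCm38.p6) gave 36 promoter windows, each from 250 bases before to 50 after a start site, for 28 of the 37 genes. Rtp4, Dhx58, Mx1, Mx2, Oas2, Parp9, Parp14, Usp18 and Zbp1 had no window and were not searched. The core of the interferon-stimulated response element, 2 copies of GAAA with 2 bases between them on either strand, was present in a window of 15 of these 28 genes (53.6%), against 3.99% of all 27025 genes in the table. The core of the gamma-activated site, TTC and GAA with 3 bases between them, was present for 10 of 28 (35.7%), against 9.55% of all genes. The first core was found for 3 of the 9 tested genes with a promoter whose groups did not overlap and for 11 of the 17 whose groups overlapped. The 160 bases before the start are printed for the members with a match there and the largest differences on the higher side, with each match in capitals. Read on the other strand, GAAA appears as TTTC. Ddx58 belongs to this group by its difference, but its match lies after the start site and is not shown.
Trim30a (chr7:104465194-104465353, minus strand): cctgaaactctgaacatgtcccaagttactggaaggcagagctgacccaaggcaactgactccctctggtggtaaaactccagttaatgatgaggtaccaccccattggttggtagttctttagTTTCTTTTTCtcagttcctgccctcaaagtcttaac
Rsad2 (chr12:26456453-26456612, minus strand): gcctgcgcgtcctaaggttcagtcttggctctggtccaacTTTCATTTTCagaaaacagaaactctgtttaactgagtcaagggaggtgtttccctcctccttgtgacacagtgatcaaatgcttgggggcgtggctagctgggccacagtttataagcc
Gbp7 (chr3:142530176-142530335, plus strand): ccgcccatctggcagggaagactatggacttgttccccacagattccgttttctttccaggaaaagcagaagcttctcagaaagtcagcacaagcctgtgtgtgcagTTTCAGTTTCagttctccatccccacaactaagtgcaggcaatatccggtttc
Ifit3 (chr19:34583369-34583528, plus strand): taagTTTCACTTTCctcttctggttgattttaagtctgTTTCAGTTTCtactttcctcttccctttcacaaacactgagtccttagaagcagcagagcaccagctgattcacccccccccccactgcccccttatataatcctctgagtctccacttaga
Gbp2 (chr3:142620503-142620662, plus strand): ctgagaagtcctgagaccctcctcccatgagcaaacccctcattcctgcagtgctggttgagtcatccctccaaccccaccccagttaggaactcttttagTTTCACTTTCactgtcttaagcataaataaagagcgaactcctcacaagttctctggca

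The matches lay 36 bases before the start in Trim30a, 53 in Gbp7, 59 in Gbp2 and 120 in Rsad2, counted from the first base of the match, and Ifit3 held a pair at 156 and 122. Trim30a and Rsad2 had the second and the third largest differences on the higher side, after Rtp4, whose promoter was not searched. Gbp2 and Gbp7 carry a match near the start yet had overlapping groups. A match is a stretch of letters and not a measured binding site.

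The other genes of the pathway, from 4 lists, were also more often above 0 than below. Of 88 tested, 59 (67.0%) had a log2 difference above 0, beside a background of 45.0%, with a median of 0.15. In 15 (17.0%) the Notch1f/f tumours were higher without overlap and in 3 lower, beside backgrounds of 8.13% and 10.4%. Tdrd7, counted as higher without overlap, and Ifnlr1, counted above 0, passed the filter on dim probe sets only through their Notch1f/f values. None passed an adjusted p of 0.05 in limma, and the smallest adjusted p was 0.135. An unadjusted limma p under 0.05 was found for 12 higher (13.6%) and 3 lower, beside backgrounds of 5.94% and 7.6%.

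The interferons themselves gave little signal. Ifnb1 had 8.5 to 12.6 in the Notch1+/+ tumours and 7.8 to 11.8 in the Notch1f/f tumours (-0.0025 ± 0.17). Ifng was at most 11.0 in any tumour, in Notch1+/+ tumour 3, and at most 2.4 in the Notch1f/f tumours. Ifna2 and Ifna4 were at most 3.8 everywhere, and Ifna1 had 14.2 in Notch1f/f tumour 2 and at most 6.1 in the other tumours. Of the receptor chains, Ifnar1 had 111.6, 115.8 and 116.5 in the Notch1+/+ tumours and 154.0, 143.6 and 162.9 in the Notch1f/f tumours, without overlap (0.37 ± 0.21, limma adjusted p = 0.456). Ifnar2 had 75.6, 126.3 and 90.5 against 230.5, 103.8 and 386.2, where Notch1f/f tumour 2 lay within the Notch1+/+ range (1.03 ± 0.41, limma adjusted p = 0.336). The gamma receptor chains Ifngr1 and Ifngr2 and the lambda receptor Ifnlr1 had overlapping groups, with differences of 0.41 ± 0.44, 0.33 ± 0.25 and 0.24 ± 0.18.

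Of 14 tested genes of signalling and feedback, 10 were above 0, and without overlap 3 were higher and 1, the phosphatase Ptpn2, was lower, beside backgrounds of 8.13% and 10.4%. Ptpn2 had 916.5, 1030.1 and 956.7 against 833.2, 846.3 and 733.2 (-0.26 ± 0.17, limma adjusted p = 0.499). Jak1, a kinase of both receptor types, had 688.0, 703.5 and 585.3 against 802.8, 838.2 and 1542.7 (0.61 ± 0.26, limma adjusted p = 0.353). Irf2bp2, a partner of the repressor Irf2, had a difference of 0.49 ± 0.22, Socs1, an inhibitor of Jak kinases, of 0.54 ± 0.28 and Ptpn6, a phosphatase, of -0.69 ± 0.38. Of 12 tested nucleic acid sensors and adaptors, none had groups without overlap. Sting1, the adaptor of DNA sensing, had 57.1, 142.6 and 96.5 against 147.8, 122.3 and 200.4 (0.64 ± 0.33). Mavs and Cgas had differences of -0.55 ± 0.30 and -0.52 ± 0.39, and Aim2 of 0.96 ± 0.54.

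Of 56 other interferon-induced genes tested, 35 (62.5%) were above 0, beside a background of 45.0%, with a median of 0.08. Without overlap, 11 (19.6%) were higher and 2 lower, beside backgrounds of 8.13% and 10.4%. Tdrd7, counted among those higher, had 5.7 to 7.7 against 8.3 to 12.5. It passed the filter on dim probe sets only through its Notch1f/f values. Shisa5, a pro-apoptotic membrane protein, had 930.1, 1341.7 and 1540.6 against 3431.5, 2436.5 and 3905.3 (1.35 ± 0.24, limma adjusted p = 0.135). Slfn1, a Schlafen gene of thymocytes, had 6.5, 7.4 and 11.5 against 29.8, 61.2 and 26.2 (1.12 ± 0.26, limma adjusted p = 0.212). B2m, the light chain of MHC class I, had 2802, 2791 and 4096 against 5075, 5052 and 4912 (0.66 ± 0.17, limma adjusted p = 0.248). Pnp, a purine phosphorylase, was lower, at 467.2, 681.7 and 639.0 against 184.5, 311.2 and 199.7 (-1.32 ± 0.26, limma adjusted p = 0.152).

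**Figure D4:**
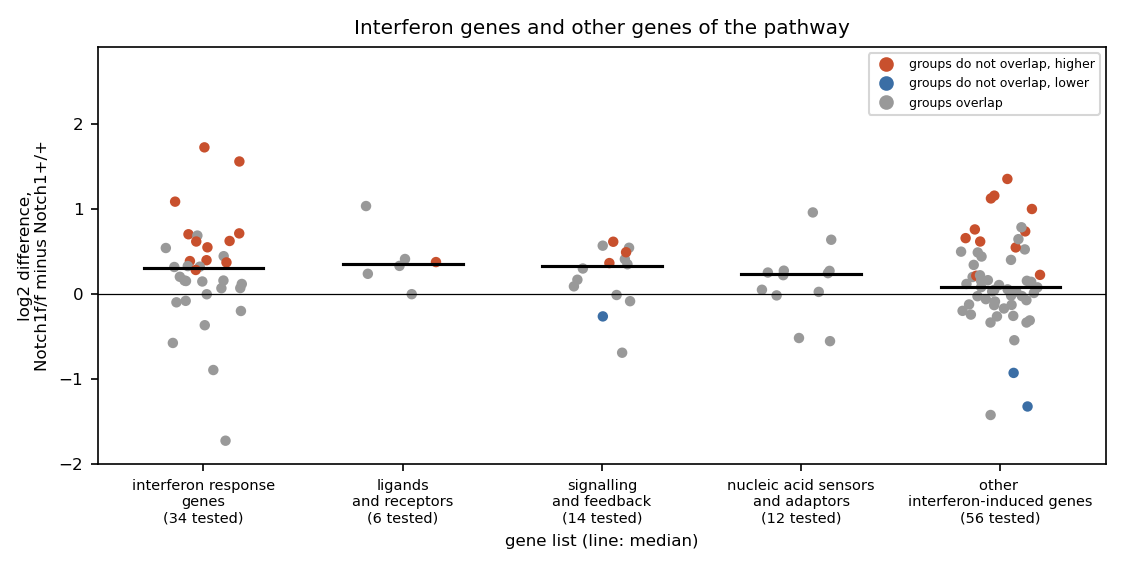
Log2 difference between the genotypes for the tested interferon response genes and for 4 lists of other pathway genes, 1 point per gene, with the list's median as a line and colours for groups that did not overlap. The medians are 0.30, 0.35, 0.32, 0.23 and 0.08 from left to right, and points lie on both sides of 0 in every list.

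Markers of other cell types also differed between the genotypes, beside the interferon genes. The summed intensity of 12 macrophage markers was 285 to 997 in the Notch1+/+ tumours and 1508 to 2918 in the Notch1f/f tumours. Of these markers, 10 of 12 had a higher mean in the Notch1f/f tumours. Adgre1 and Marco had a lower mean, Adgre1 at 19.2 to 51.9 against 16.9 to 36.6. Marco lay lower without overlap, at 13.4 to 33.8 against 0.5 to 0.6. Lyz2 alone gave 1122.5 of the macrophage sum in Notch1f/f tumour 3. The 9 dendritic cell markers summed to 243 to 645.5 against 591 to 4503, with Notch1f/f tumour 3 far above the rest through Cd74 and MHC class II, while Flt3, Xcr1, Zbtb46 and Batf3 stayed under 20 in every tumour. The 7 B cell markers summed to 84.4 to 96.7 against 134 to 335.5, with Ebf1 under 20 throughout. Of 8 markers of plasmacytoid dendritic cells, the main producers of type I interferon, 4 had a higher mean in the Notch1f/f tumours, the sums were 511 to 4907 against 777.5 to 1160, and the defining gene Siglech was at most 12.8. Ly6d alone gave 2046 of the sum of 2439 in Notch1+/+ tumour 2 and 4374 of 4907 in Notch1+/+ tumour 3. The 5 NK cell markers summed to 1600 to 2490 against 2749 to 4486, nearly all of it Gzma, with Ncr1, Klrk1 and Klrd1 under 20. Of the 5, only Gzma and Klrd1 had a higher mean in the Notch1f/f tumours, Klrd1 at 1.2 to 3.6 against 9.6 to 14.6. The 13 T cell and thymocyte markers summed to 19254 to 22092 against 23186 to 27659. Of 7 fibroblast markers, 7 had a lower mean in the Notch1f/f tumours, led by Col1a2, a collagen chain, at 53.3 to 977.6 against 13.2 to 71.3, and the sums were 1401 to 2552 against 868 to 1951. Pdgfrb alone gave 1103 to 1976 against 813 to 1827 of the fibroblast sums. Of 7 neutrophil markers, 6 had a lower mean, Ngp and Camp lay lower without overlap, and the sums were 208 to 351 against 127 to 209.6. The sums of endothelial and thymic epithelial markers overlapped, as did those of dendritic, plasmacytoid, fibroblast and neutrophil markers. In such whole tumours, more cells of a type and more RNA per cell cannot be told apart, and the part of these cells in the interferon values was not tested. Notch1f/f tumour 3 had the most macrophage and dendritic signal. Notch1f/f tumours 1 and 2, at 1542.5 and 1507.7, also lay above every Notch1+/+ tumour in the macrophage sum. Without Notch1f/f tumour 3, which leaves that separation in place, the log2 difference was 1.57 for Rtp4, 1.79 for Trim30a, 1.24 for Rsad2 and 0.62 for Irf7, and the median of the tested set was 0.23.

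**Figure D5:**
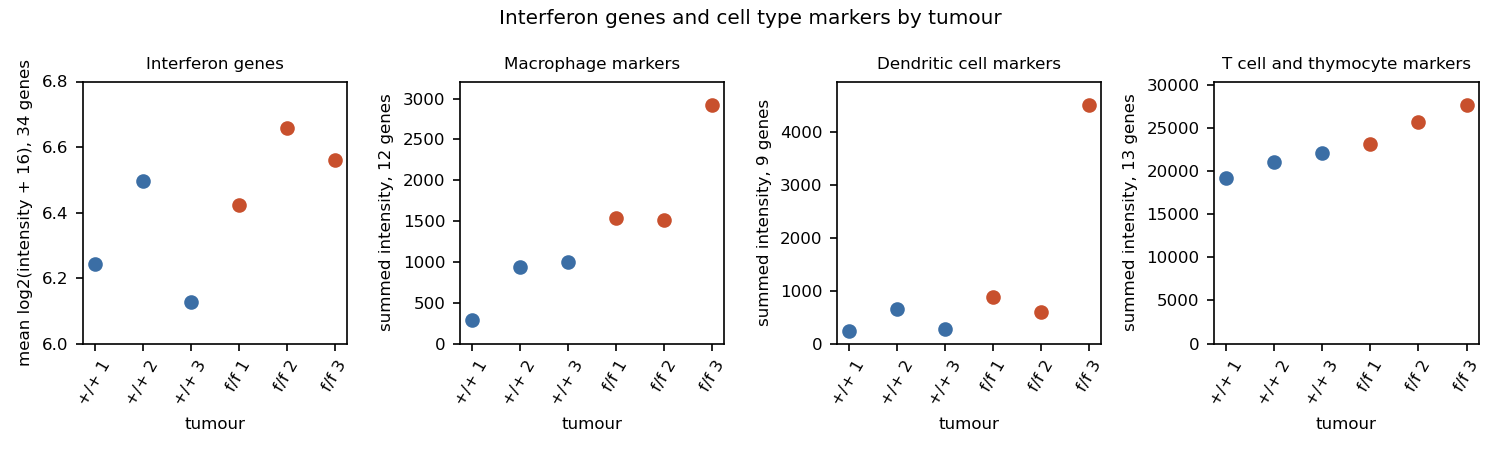
Mean log2(intensity + 16) of the 34 tested interferon genes (first panel; its axis does not start at 0) and summed intensity of macrophage, dendritic cell and T cell markers (linear axes from 0) in each of the 6 tumours. Interferon genes are highest in Notch1f/f tumour 2 at 6.66, macrophage and dendritic cell sums are highest in Notch1f/f tumour 3 at 2918 and 4503, and all 3 Notch1f/f tumours lie above all Notch1+/+ tumours in the macrophage sum.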

How the data were processed

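The values deposited by the authors are linear intensities, 1 per probe set and array, made with MAS5, per the submitters' processing notes; its version is not given in the sources used here. Symbols came from the platform annotation, and all 37 measured members matched RefSeq through Entrez identifiers. After leaving out 64 control probe sets, intensities were put on the log2 scale with a pseudocount of 16. Probe sets whose mean lay under the 40th percentile (4.56, an intensity of 7.60) were left out, which kept 27022. The genotypes were compared in limma 3.58.1 (R 4.3.3) by lmFit followed by eBayes with an intensity trend, two-sided, with Benjamini-Hochberg adjustment over all kept probe sets and a threshold of 0.05. The fit was tested on simulated data for this comparison, with 200 of 27022 probe sets changed: it called 8% of log2 changes of size 1 and 72% of size 2, so most changes of size 1 are missed at this threshold. The members and lists were chosen with earlier results of these data known. All members are named; values by tumour are given for those without overlap and for the regulators, and for pathway genes the 4 smallest p-values per list and fixed receptors and ligands. Other genes and probe sets were chosen after their values were seen. Alternatives were a pseudocount of 1 or 64, quantile normalisation, no filter or the 60th percentile, array weights, median centring, a fit with no trend, other probe set rules, and each array left out. MAS5 detection calls were not used, so dim signal cannot be told from background. With 3 arrays per group, their number limits the precision. Figures used matplotlib 3.10.9 under Python 3.11.15.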

Additional observations from a re-analysis of the deposited data

How the results depend on the processing

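No interferon response gene and no gene of the pathway lists passed an adjusted p of 0.05 in limma under any alternative run. An unadjusted limma p under 0.05, in either direction, was found for 6 to 10 of the response genes. In the main run 5.94% of all probe sets reached it on the higher side and 7.6% on the lower, and these shares are not given for the alternatives. The median log2 difference of the response genes stayed above 0 in every alternative, from 0.17 to 0.35 with single tumours left out. With single tumours left out, 12 to 15 were higher without overlap and 0 to 2 lower, where the share of all probe sets higher without overlap was 11.0% to 15.8%. In the other alternatives 9 to 13 were higher and 0 lower, where that share was 6.61% to 9.70%. The share of all probe sets lower without overlap was 10.4% in the main run and is not given for the alternatives, so the lower counts lack a matched background. Of the 12, Ifi35 overlapped when probe sets ending in _s_at or _x_at were not used. Averaging a gene's probe sets made Dhx58 and Ifi35 overlap and added Parp14, and the filter at the 60th percentile removed Dhx58, Ifit3 and Mx1. Directions turned for the genes given next, none of which was called. Bst2 had 0.014 with a pseudocount of 1, 0.038 with quantile normalisation and 0.042 with median centring. Array weights gave -0.0018 for Oas2, -0.11 for Oasl1 and -0.067 for Cmpk2. Averaging the probe sets of each gene gave 0.13 for Irf8, 0.11 for Stat2, 0.11 for Samhd1 and -0.17 for Zbp1. Without probe sets ending in _s_at or _x_at, Samhd1 had 0.017. With single tumours left out, values ranged from -0.25 to 0.48 for Bst2, -0.10 to 0.27 for Cmpk2, -0.024 to 0.56 for Gbp2, -0.15 to 0.30 for Gbp3, -0.31 to 0.11 for Irf8, -0.31 to 0.17 for Oas3, -0.19 to 0.22 for Oasl1 and -0.035 to 0.33 for Zbp1. The causes were not tested. No paired analysis was possible because the labels give no shared replicate numbers. Dim genes such as Mx1, Ifit3 and the oligoadenylate synthetases are limited by signal over background, and the number of arrays limits all values.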

Other observations

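Some interferon-induced genes below the filter on dim probe sets were also separated between the genotypes. They were chosen after their values were seen and were not tested. Casp1, the inflammatory caspase, had 2.6, 0.9 and 0.3 in the Notch1+/+ tumours and 8.9, 5.7 and 6.6 in the Notch1f/f tumours. Mlkl, the effector of necroptosis, had 2.2, 0.6 and 0.9 against 9.0, 6.8 and 6.5. Tlr7, an endosomal sensor of single-stranded RNA, had 2.1, 3.0 and 0.5 against 14.8, 7.4 and 17.2. All of these values lie where MAS5 signal without detection calls cannot be told from background. Among the brighter genes, Apobec3, a restriction factor of retroviruses, had 189.0, 390.5 and 760.9 against 89.0, 234.8 and 112.0, with overlapping groups and a log2 difference of -1.42 ± 0.48 (limma adjusted p = 0.296).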
